A study of Mus musculus with 23 samples.

Results

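The genes described here are 37 nucleolar genes of ribosome biogenesis, out of 55487 gene IDs in the count tables. They were chosen by name, as a module around Noc2l, because Noc2l had been among the clearest falls in the soma libraries of stretched cultures. The change between stretched and control somata is therefore the value that led to the choice, and it is given below as a description: calls from it are only counted beside those of all genes, and nothing rests on them. All 37 symbols matched 1 Ensembl ID each.

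Ribosomes are put together in the nucleolus, a body inside the cell nucleus. RNA polymerase I transcribes the ribosomal RNA precursor there, small nucleolar ribonucleoproteins (snoRNPs) guide its chemical modification, and large sets of assembly factors fold and cut it into the small and the large ribosomal subunit. Neurons make ribosomes in the cell body, and their axons contain ribosomes and mRNAs but no nucleus.

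The cultures came from the hippocampus of C57Bl/6 mouse pups of postnatal day 1. The chambers were microfluidic, with channels that only neurites can pass, and all cultures, controls included, were given magnetic nanoparticles (MNPs) at 5 µg/ml. Stretched cultures were exposed from day in vitro (DIV) 1 to DIV 6 to a magnetic field gradient of 50 T/m, which pulls on the particles. Control cultures were kept in a null gradient. Libraries of poly(A) RNA were made from axonal preparations (5 control, 6 stretched) or from the total cell culture, called soma here (6 control, 6 stretched). The labels do not say whether replicates were separate cultures or animals, so p-values measure only the spread between these libraries. The soma libraries hold neurons together with other cell types, and in such libraries fewer cells of a type and less RNA per cell cannot be told apart.

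Depth ranged from 16369153 to 43048953 counts per library, and 3 counts, taken as the floor, corresponded to between 0.0697 and 0.183 CPM (counts per 1000000 counts of the library). Soma libraries held at least 1 count for between 22452 and 24575 genes, and axonal libraries for between 4263 and 10242. Axonal libraries held astrocyte and dividing-cell markers, against their label as pure axonal preparations, while other marker lists were partly at 0. All 8 astrocyte markers had counts in both axonal groups, with a summed level of between 4651 and 25629 CPM in control axons and between 4790 and 19604 CPM in stretched axons. Of the 8 markers of dividing cells, 7 had counts in control axons (Aurkb was at 0) and 8 in stretched axons. Their summed medians were 553 CPM in control and 384 CPM in stretched axons, beside 289 and 236 CPM in control and stretched somata. Of the 8 microglia markers 3 had counts in control and 7 in stretched axons, with summed medians of 0.111 and 0.0642 CPM. Oligodendrocyte lineage markers had counts for 4 of 8 in each axonal group (67.5 and 13.8 CPM). Fibroblast or vessel markers had counts for 5 of 8 in each (106 and 321 CPM). A marker counts here if any library of the group held it. The 8 neuron markers summed to between 1272 and 4354 CPM in axonal libraries of both groups and to between 5696 and 7261 CPM in soma libraries. In the axonal libraries RNA of axons and RNA of other cells cannot be told apart, also for the genes below. Soma libraries fell into a pair of sets by the Y-linked gene Eif2s3y, with 3 libraries of each group in each set. Control soma replicate 4 stood apart from the other control somata for many of the genes below.

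Of the 37 genes, 30 had a promoter entry in the RefSeq table (build GRCm38.p6), with 33 promoters in all, each from 250 bases before to 50 bases after the start. Short motifs were searched on both strands, among them CACGTG, the E-box bound by Myc and related factors, and CCGGAAG, a core bound by ETS factors. CACGTG was in 6 of the 33 promoters (18.2%) and in 7.15% of all 32851 promoters. CCGGAAG was in 11 of 33 (33.3%) and in 8.86% of all promoters. The motif of NRF1 and a palindromic motif around CGCG, of 10 letters each, were in 0 of 33 promoters, beside 0.971% and 0.466% of all. The 200 bases upstream of 3 genes are shown because they stand for genes that did different things in stretched somata: Noc2l and Nhp2, which had the lowest fold changes of their groups, and Utp18, which varied without a shared direction. Capitals mark CACGTG and CCGGAAG on the given strand or its complement.
Noc2l, chr4:156235815-156236014, + strand: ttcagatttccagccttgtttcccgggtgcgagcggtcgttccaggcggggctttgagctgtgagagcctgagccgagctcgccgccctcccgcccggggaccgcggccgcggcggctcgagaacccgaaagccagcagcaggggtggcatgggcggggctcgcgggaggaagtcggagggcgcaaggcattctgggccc
Nhp2, chr11:51619573-51619772, + strand: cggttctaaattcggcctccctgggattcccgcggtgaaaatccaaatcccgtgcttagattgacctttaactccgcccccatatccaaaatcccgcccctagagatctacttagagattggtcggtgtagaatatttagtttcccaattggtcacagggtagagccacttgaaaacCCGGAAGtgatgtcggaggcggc
Utp18, chr11:93885767-93885966, - strand: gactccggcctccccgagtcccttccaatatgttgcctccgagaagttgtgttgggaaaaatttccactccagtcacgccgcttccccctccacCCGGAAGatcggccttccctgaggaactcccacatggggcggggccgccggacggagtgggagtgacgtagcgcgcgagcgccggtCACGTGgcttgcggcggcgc
The CCGGAAG match of Noc2l began 2 bases before its start and is not complete in the stretch shown. In Nhp2 the match began 23 bases before the start. In Utp18 CCGGAAG began 106 bases and CACGTG 20 bases before the start. A match is a description of the letters and not a binding site.

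In the soma libraries each of the 37 genes had counts in every library, 126 at the lowest. Normalised CPM below are CPM scaled by the TMM method within the soma libraries, and fold changes are log2 of stretched over control with a standard error (SE). Here and below the SE was derived from the edgeR test. It is the size of the log2 fold change over the square root of the F statistic. In edgeR 17 genes were under an adjusted p of 0.05 as lower in stretched somata, beside 13.9% of the 15632 genes tested, and 2 as higher, beside 11.2% of all genes. The genes were chosen on this comparison, so these counts are no test of them and nothing is read from the shares. The fold change was negative for 28 genes and positive for 9, with a median of -0.24, beside a median of -0.03 over all genes tested. It ranged from -1.44 for Noc2l to 0.41 for Utp15.

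**Figure D1:**
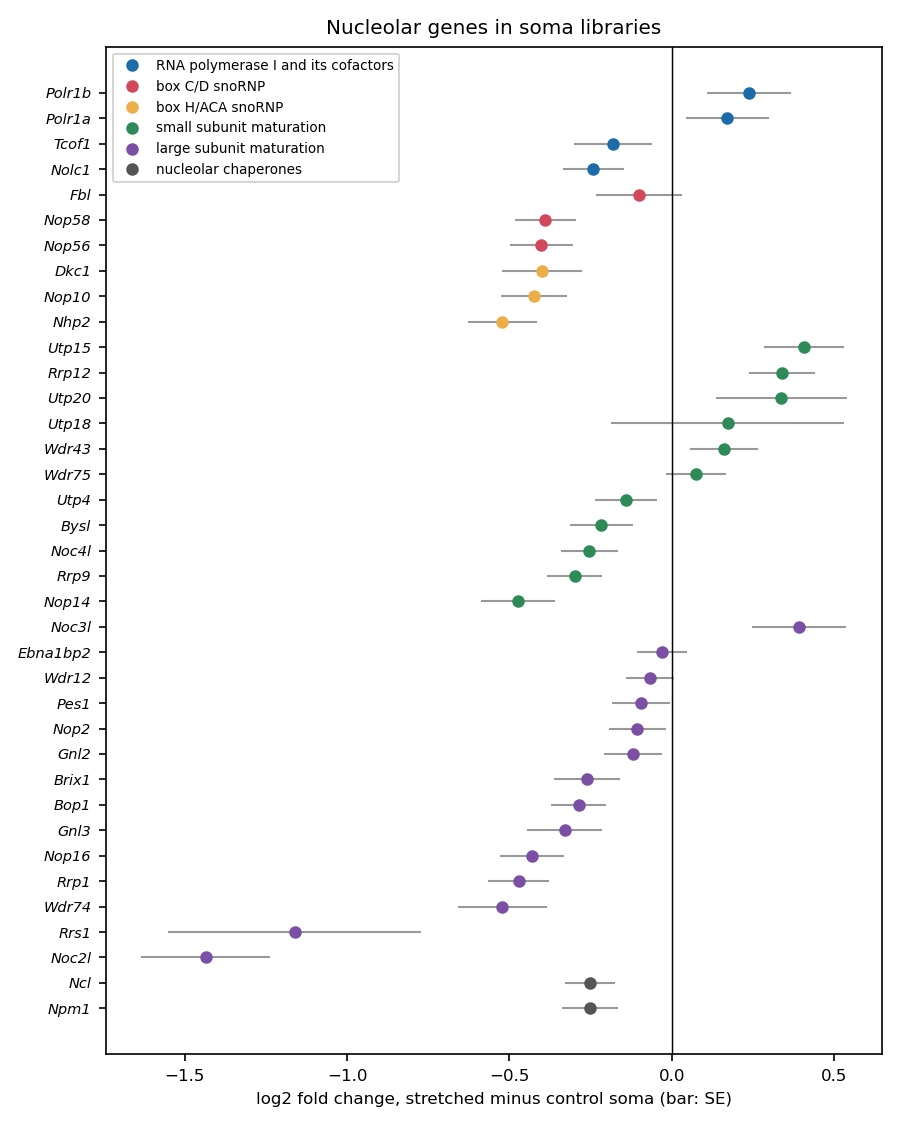
Log2 fold change between stretched and control somata for each of the 37 genes (points; bars are the SE; n = 6 and 6 libraries), ordered by role and coloured by it. Noc2l and Rrs1 lie farthest to the left, at -1.44 and -1.16, and the 9 genes on the right of 0 are small subunit factors, RNA polymerase I subunits and Noc3l.

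Noc2l, a factor that escorts the large subunit precursor out of the nucleolus, had between 7.84 and 22.0 normalised CPM in control somata, with a median of 18.0. In stretched somata it had between 5.20 and 7.13, with a median of 5.99. The groups did not overlap, and the control library closest to the stretched ones was replicate 4, at 7.84, while the other 5 controls were at 15.3 or above. The means were 16.6 ± 4.81 and 6.14 ± 0.693 (SD, 6 libraries each), and the log2 fold change was -1.44 (SE 0.20). Without control soma replicate 4 the fold change was -1.59. It was -1.56 within the Eif2s3y-high set and -1.26 within the low set. Noc2l lies at chr4:156236010-156247616 on the plus strand (mm10), and its exons overlap those of Samd11 on the other strand. Whether the counting used strand is not given in the sources used here, so reads of this pair may not be separable.

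Rrs1, which helps to place the 5S ribosomal RNA into the large subunit, had between 10.0 and 55.3 normalised CPM in control somata, with a median of 35.5, and between 6.96 and 26.6 in stretched somata, with a median of 14.9. Its log2 fold change was -1.16 (SE 0.39). Control replicate 4 was at 10.0, inside the stretched range, and the other 5 controls were at 34.5 or above, outside it. Rrs1 is named here after its values were seen. So is its likeness to Utp18, a small subunit processome protein, in the stretched somata. Rrs1 was at 21.8, 18.8 and 26.6 in stretched replicates 2, 6 and 8 and at 11.0, 8.50 and 6.96 in replicates 1, 4 and 5. Utp18 was at 48.5, 35.2 and 43.5 in the first 3 of these and at 22.8, 10.3 and 12.1 in the others. Both genes thus split the stretched somata in the same way, and Utp18 had a fold change of 0.17 (SE 0.36) with the widest error of the small subunit factors. The split is not that of the Eif2s3y sets. Utp18 was 0.87 within the high set and -0.61 within the low set.

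Among the large subunit factors 13 of 14 had a negative fold change, with a median of -0.27. Rrp1, the most abundant of the 37 genes, had a median of 535 normalised CPM in control somata (410 to 564) and of 355 in stretched somata (337 to 431), a log2 fold change of -0.47 (SE 0.09). Only control replicate 4, at 410, lay inside the stretched range. Wdr74 was lower by a similar size (log2 fold change -0.52, SE 0.14), with medians of 83.3 and 53.3. Nop16 was at medians of 87.2 and 63.8 (log2 fold change -0.43, SE 0.10). Bop1 and Pes1, which with Wdr12 form the PeBoW complex of large subunit maturation, had log2 fold changes of -0.29 (Bop1, SE 0.09), -0.09 (Pes1, SE 0.09) and -0.07 (Wdr12, SE 0.08). Their order depended on the processing: with the offset for transcript length and GC content described below, Bop1 was at -0.07 and Wdr12 at -0.39. The exception among large subunit factors was Noc3l, a partner of Noc2l in pre-ribosome transport. It had a median of 10.4 in control somata (8.80 to 16.3) and of 14.8 in stretched somata (12.8 to 17.1), with a log2 fold change of 0.39 (SE 0.15). Its highest control was replicate 4 at 16.3, and the other 5 controls, at 11.4 or below, were under all stretched somata.

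Among the snoRNP proteins, the 3 genes of the box H/ACA class had negative fold changes. This class guides the conversion of uridine to pseudouridine. Nhp2 had a median of 101 normalised CPM in control somata (74.4 to 119) and of 70.0 in stretched somata (61.2 to 82.4), a log2 fold change of -0.52 (SE 0.11). Nop10 had medians of 148 and 105 (-0.42, SE 0.10), and Dkc1, the pseudouridine synthase itself, 54.9 and 39.4 (-0.40, SE 0.12). With the length and GC offset Nhp2 was at -0.19, Nop10 at -0.18 and Dkc1 at -0.39. In the box C/D class, which guides ribose methylation, Nop56 went from a median of 230 (178 to 250) to 163 (154 to 191), a log2 fold change of -0.40 (SE 0.10). Nop58 had medians of 128 and 97.4 (-0.39, SE 0.09). Fbl, the methyltransferase of the same particle, was at medians of 71.4 and 69.3 (-0.10, SE 0.13). Fbl changed sign between the Eif2s3y sets, with 0.21 in the high and -0.31 in the low set.

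The small subunit factors had fold changes of both signs, 5 negative and 6 positive. Nop14, a processome factor, had between 34.1 and 44.8 normalised CPM in control somata (median 39.8) and between 23.5 and 34.1 in stretched somata (median 26.6), a log2 fold change of -0.47 (SE 0.11). Its groups did not overlap, but control replicate 4 and stretched replicate 4 nearly met. Rrp9, a protein of the U3 snoRNP, had medians of 39.0 and 32.7 without overlap (-0.30, SE 0.09). Utp15, a processome protein also needed for transcription of the precursor, had a median of 39.3 in control somata (34.7 to 59.4) and of 54.7 in stretched somata (49.3 to 64.8), a log2 fold change of 0.41 (SE 0.12). Control replicate 4 was the highest control at 59.4, and the other 5, at 40.0 or below, were under all stretched somata. Rrp12, an export factor of pre-ribosomes, had medians of 36.9 and 47.3 (0.34, SE 0.10). Of the 4 genes of RNA polymerase I and its cofactors, 2 were negative and 2 positive. Polr1b, the second largest subunit of the enzyme, was at medians of 22.3 and 26.8 (0.24, SE 0.13), and Nolc1, a phosphoprotein that links polymerase and snoRNPs, at 99.2 and 89.2 (-0.24, SE 0.09). Both nucleolar chaperones had lower medians in stretched somata. Ncl (nucleolin) had medians of 453 and 375 and Npm1 (nucleophosmin) of 220 and 177, each with a log2 fold change of -0.25 (SE 0.08 and 0.09). With the length and GC offset the pair came apart, with Ncl (longest transcript 8202 bases) at -0.55 and Npm1 (1633 bases) at -0.09.

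**Figure D2:**
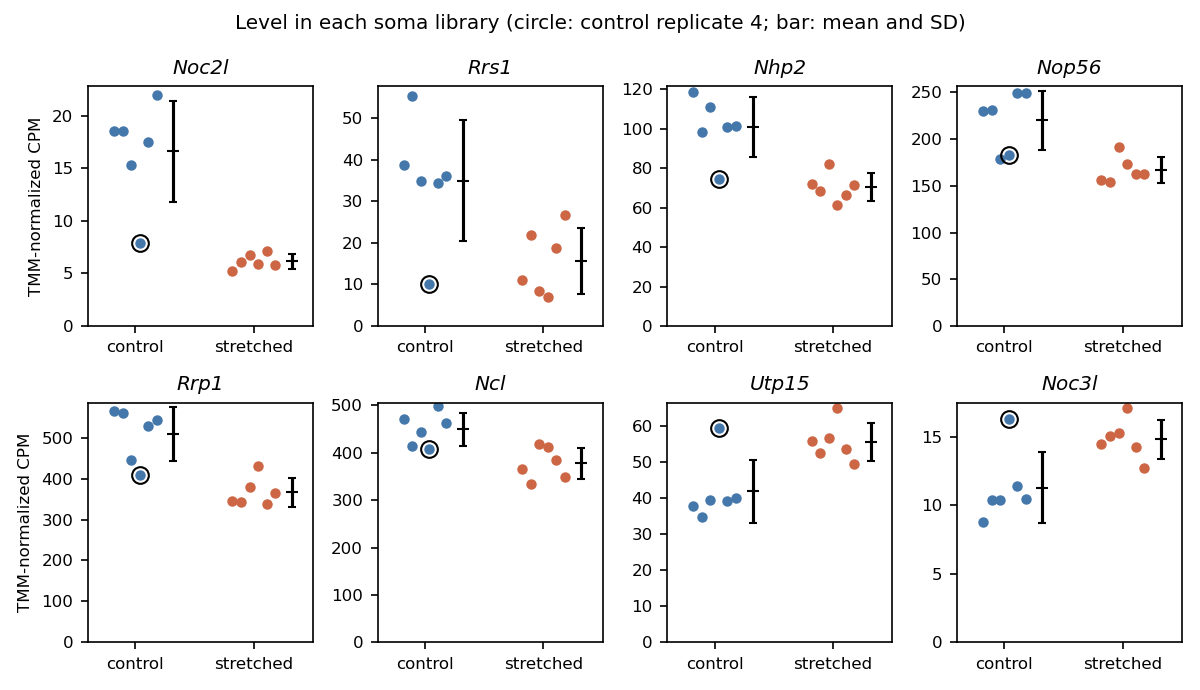
Normalised CPM of 8 of the genes in each soma library (points; n = 6 per group), with the mean and SD beside them and control replicate 4 circled. In 5 of the 6 genes with a negative fold change control replicate 4 is the lowest control, and in Utp15 and Noc3l it is the highest.

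The position of control soma replicate 4 recurred across the 37 genes. It was the lowest control for 15 of the 28 genes with a negative fold change, and inside or below the stretched range for 21 of them. Replicate 3, the next, was inside or below that range for 15, and replicates 1 and 5 for 3 each. These positions were not counted over all genes, so they are not read as particular to the 37. Groups did not overlap for 3 genes as lower (Noc2l, Nop14 and Rrp9), beside 2.73% of all genes tested, and for 0 as higher, beside 1.31%. Without control replicate 4, 19 genes were called lower and 5 higher, beside 20.1% and 18.2% of all genes in that fit. With it the shares of all genes were 13.9% and 11.2%. Leaving out control replicate 1, 5 or 6 gave 10, 9 or 11 genes lower, beside 10.1%, 9.08% or 10.9% of all genes. Within the Eif2s3y-high set (3 against 3) 14 genes were called lower and 6 higher, beside 12.7% and 16.5% of all genes, and within the low set (3 against 3) 0 of the 37 and 0 of all 15718 genes tested passed in edgeR, with 5 and 2739 at an unadjusted p under 0.05. The sign was negative in both sets for 25 genes, positive in both for 8 and mixed for 4. Marker levels were compared beside these counts. The 8 microglia markers summed to between 38.4 and 76.3 CPM in control and between 28.3 and 36.4 CPM in stretched somata, without overlap. Oligodendrocyte lineage markers, of which Sox10 was at 0, had medians of 68.4 and 44.5 CPM (42.7 to 74.1 against 39.8 to 57.3), and overlapped. Neuron markers had medians of 6734 and 6206 CPM (6021 to 7261 against 5696 to 6342), and overlapped. Astrocyte (5120 to 14075 against 5354 to 11400 CPM) and dividing-cell markers (237 to 341 against 220 to 339 CPM) overlapped. Their part in the changes of the nucleolar genes was not tested.

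Transcript length moved with the change in somata. The longest annotated transcript (GENCODE, mm10) had a median of 2923 bases among the 37 genes and of 3304 among all genes tested. Genes with a positive change had a median of 3998 bases and those with a negative change of 2630.5. The rank correlation of length with the log2 fold change was 0.63 over the 37 genes and 0.46 over 15619 genes, which all share the same 12 libraries. With an offset per library for length and GC content, 7 genes were called lower and 0 higher, beside 8.98% and 6.27% of all genes, and the median was -0.15, beside -0.01. Noc2l stayed at -1.29 and Nop58 moved to -0.71. The values for Nhp2 and Wdr74, among the shortest transcripts, were -0.19 each, and Rrp9 turned to 0.07. The offset used the longest annotated transcript, of 8202 bases for Ncl, 9507 for Nop58 and 10012 for Wdr12. Whether that is the transcript expressed was not tested, and the shifts of these genes depend on it.

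**Figure D3:**
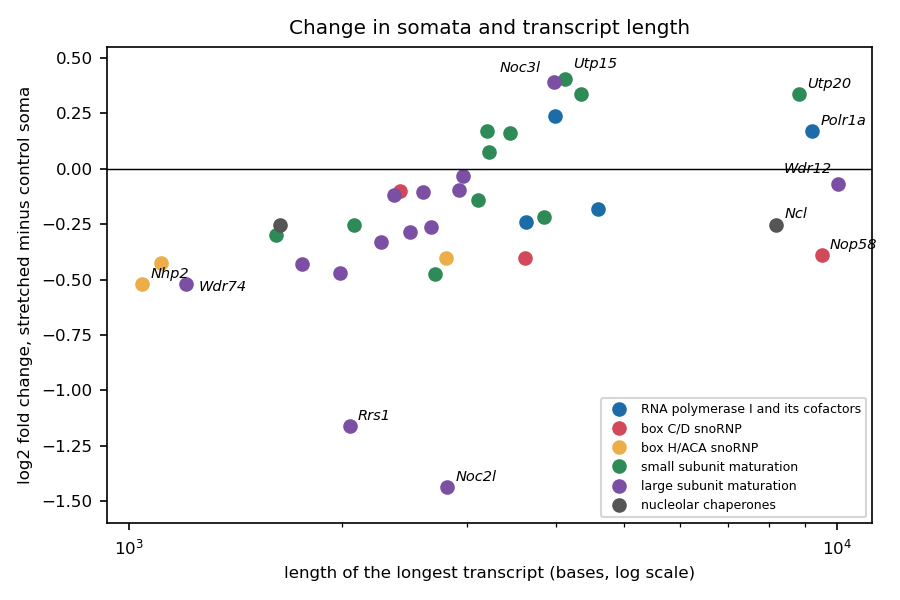
Log2 fold change between stretched and control somata against the length of the longest transcript (log axis) for the 37 genes, coloured by role. The shortest transcripts (Nhp2, Nop10, Wdr74) lie below 0 and all 9 genes above 0 are longer than the median of 2923 bases, while Noc2l and Rrs1 lie apart from the rest.

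A feature not used in the choice was the presence of snoRNA genes. Several snoRNP and nucleolar genes carry snoRNAs in their introns as a matter of textbook knowledge. A snoRNA gene lay inside 6 of the 37 genes (16.2%) and inside 1.66% of the 13863 protein-coding genes tested. Nop56 held 5, Nop58 held 4, Wdr43, Gnl3 and Ncl held 3 each and Dkc1 held 1. Wdr43, the WD-repeat protein of the small subunit, was the only one of these 6 host genes with a positive change in somata (0.16, SE 0.10). Exons of 15 of the 37 genes overlapped those of another gene.

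The other genes of the pathway, a list of 119 with 115 matched and 114 tested, were used as the surroundings of the 37. In stretched somata 30 of 114 were called lower and 8 higher, with a median of -0.17, beside the 13.9% and 11.2% of all genes given above. The lowest were Imp3, a partner of the U3 snoRNA, and Nol12, a factor of large subunit RNA processing. Imp3 had medians of 40.1 and 18.8 normalised CPM (-0.97, SE 0.16), and Nol12 of 49.4 and 29.2 (-0.62, SE 0.13). The highest were Senp3, a SUMO protease of the nucleolus, with medians of 53.9 and 98.0 (0.71, SE 0.21), and Urb2, with 2.19 and 3.67 (0.69, SE 0.24).

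In the axonal libraries the 37 genes were found in some libraries and missed in others. Per library, between 10 and 32 of the 37 genes had at least 1 count, with a median of 20 (54.1%). Control axons held 10, 15, 21, 31 and 22 of them in replicates 1, 2, 3, 5 and 7. Stretched axons held 10, 19, 19, 20, 24 and 32 in replicates 1, 2, 4, 5, 6 and 8. The 2 libraries with most of the genes, control replicate 5 and stretched replicate 8, were also those with most genes of any kind (10242 and 10065). Among the 9083 genes within the same range of mean soma level as the 37 (10.5 to 436 CPM), the median share with a count was 43.7%. Only the range was shared, and the distribution of levels within it was not matched, so the shares are not compared.

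**Figure D4:**
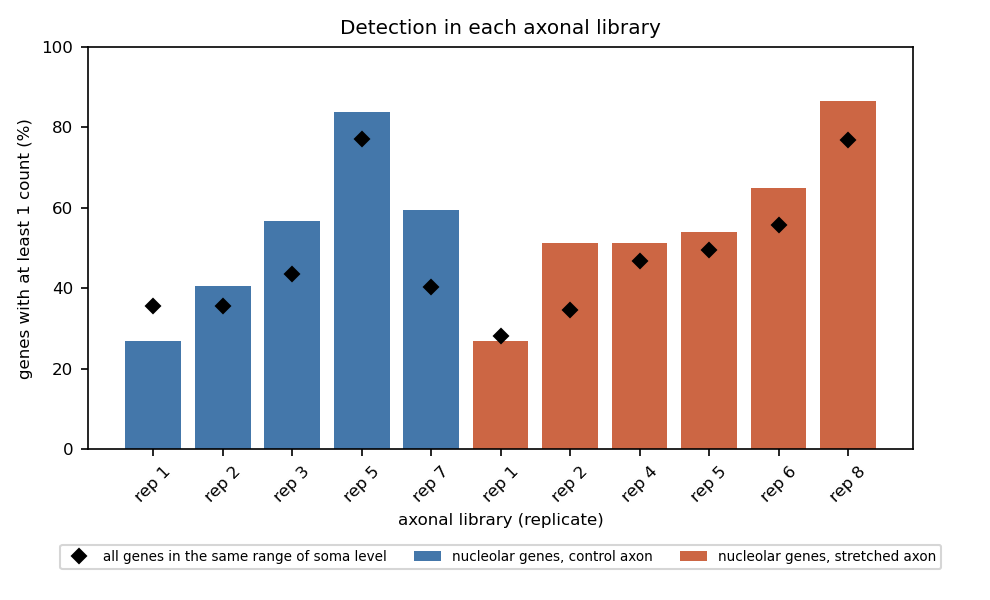
Share of the 37 nucleolar genes with at least 1 count in each axonal library (bars; blue control, red stretched), with the share of all genes in the same range of soma level (diamonds). The bars rise and fall with the diamonds and reach 83.8% and 86.5% in control replicate 5 and stretched replicate 8.

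The values were close to all or none. Of the 407 pairs of a gene and an axonal library, 184 were at 0 counts, 27 had between 1 and 99 counts, and 196 had 100 counts or more. In the soma libraries the lowest count of any of the 37 genes was 126. The sum over the 37 genes was nevertheless of the same order in both kinds of library. It was between 2309 and 6294 CPM in axonal libraries and between 2875 and 3775 CPM in soma libraries.

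3 genes had counts in all 11 axonal libraries: Ncl, Npm1 and Rrp1. These are also the genes with the highest or near the highest level in somata. Rrp1 was at 607, 328, 607, 1420 and 312 normalised CPM in control axons and between 14.5 and 1012 in stretched axons, with a median of 502. Ncl was at 640, 1178, 107, 578 and 983 in control axons and between 0.151 and 810 in stretched axons, with a median of 557. Npm1 was at 357, 531, 551, 261 and 2.49 in control axons and between 146 and 552 in stretched axons, with a median of 422. For each of the 3 the groups overlapped across most of their range, and 1 library of 11 (stretched 4 for Rrp1, stretched 1 for Ncl, control 7 for Npm1) was far under the rest.

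20 of the 37 genes had counts in 6 or more axonal libraries. Beside the 3 above, Fbl and Nop10 had counts in all 5 control axons and in 5 of 6 stretched axons, and Nop58, Nhp2 and Nop16 in 9 of 11 libraries each. Among the small subunit factors Utp4, Utp15, Wdr75 and Rrp9 had counts in 7 libraries each. At the other end, Polr1a, Rrp12 and Noc2l had counts in 1 library each. Polr1a, the largest subunit of RNA polymerase I, had 1081 counts in stretched replicate 8 alone. Rrp12 had 10 counts, in stretched replicate 5. Noc2l had 99 counts, in stretched replicate 8.

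**Figure D5:**
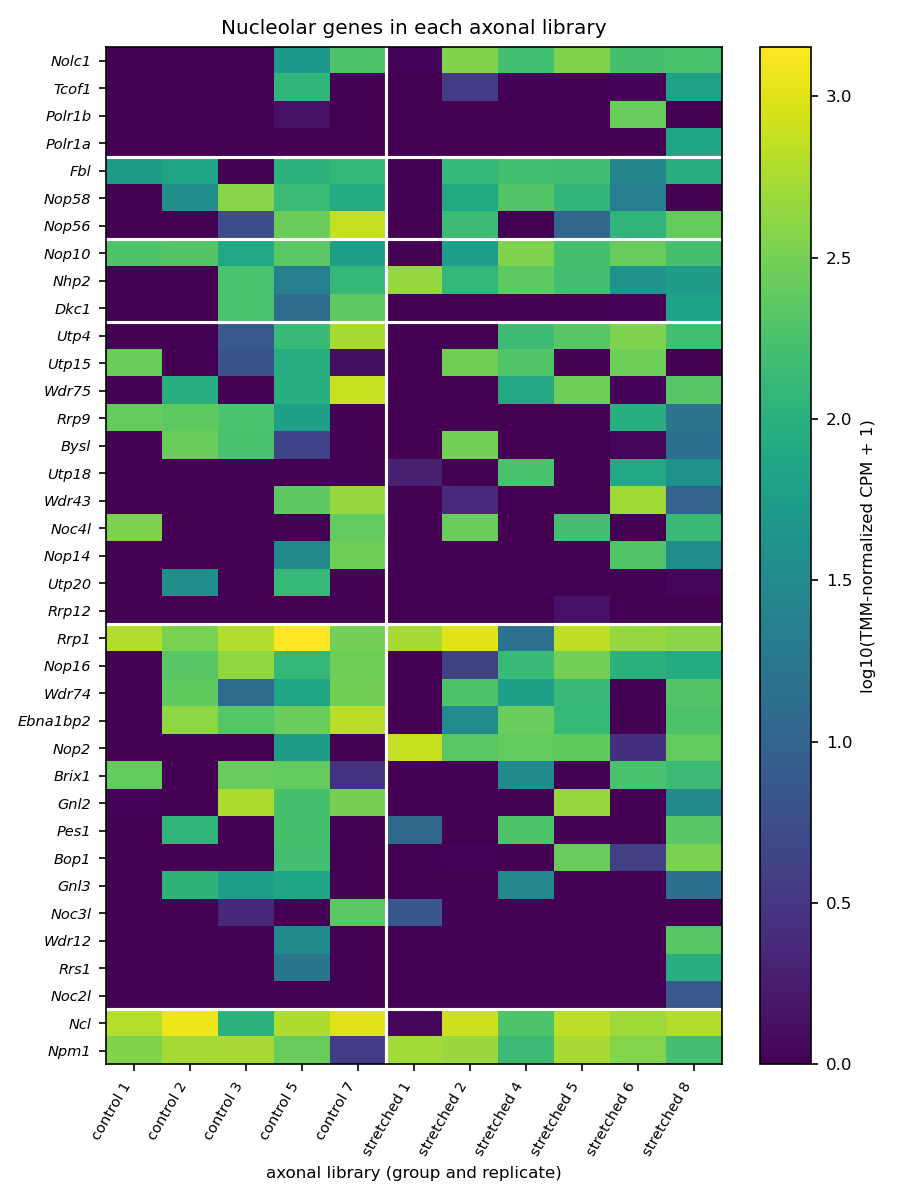
Level of each of the 37 genes in each axonal library as log10(normalised CPM + 1), ordered by role and by the number of libraries with counts, with a white line between the 5 control and 6 stretched libraries. Ncl, Npm1 and Rrp1 are bright in nearly every column, and last rows of role groups, such as Polr1a and Noc2l, are dark in all but 1. Rrp12, at 0.424 in its only library with counts, is dark throughout.

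Whether the pull changed these genes in axons was tested on libraries that had no part in the choice. Of the 37 genes 24 passed the filter on low counts, and 0 of the 24 passed an adjusted p of 0.05 in edgeR's quasi-likelihood test, as was true of all 4947 genes tested (0%). At an unadjusted p under 0.05 the count was also 0 of 24, beside 0.93% of all genes. DESeq2 and limma called 0 of the 24. At an unadjusted p under 0.05 they had 1 and 2, beside 89 and 386 of all 4947 genes. The median log2 fold change was -0.46, beside 0.02 for all genes tested, with SEs of single genes between 0.78 and 3.01. It was 0.07 without control axon replicate 7 and 0.11 with limma (beside 0.89 for all genes), so its sign depended on 1 library and on the tool. Differences of the size seen in somata were not detectable with this spread. The difference between the response of axons and that of somata was not tested.

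The largest fold change in axons was that of Nop2, a methyltransferase of the large subunit RNA. It was at 0, 0, 0, 53.0 and 0 normalised CPM in control axons, with counts in replicate 5 alone. In stretched axons it had counts in 6 of 6 libraries, between 1.66 and 746 with a median of 246. The log2 fold change was 4.75 (SE 2.81), with an adjusted p of 1.00 in edgeR. Nolc1 had a similar distribution, with 0, 0, 0, 46.7 and 190 in control axons and between 0.0754 and 359, with a median of 173, in 6 of 6 stretched axons (log2 fold change 2.10, SE 2.51, adjusted p of 1.00 in edgeR). In both genes the groups overlapped. The opposite pattern was found for Rrp9, with counts in 4 of 5 control axons (255, 233, 178, 59.0 and 0) and 3 of 6 stretched axons, where the highest value was 96.7 and 1 of the 3 had a single count. Its log2 fold change was -2.96 (SE 2.74, adjusted p of 1.00 in edgeR).

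Axons were then set against somata within each condition. The soma libraries in these comparisons are those on which the genes were chosen, which bears on Noc2l above all. All 37 genes passed the filter, and each did so through the soma libraries. A gene with few axonal counts could pass the filter only because of its level in somata, so the calls below are a description. Levels here are scaled over the axonal and soma libraries of the condition together. In control cultures 5 of the 37 genes were lower in axons (edgeR, adjusted p under 0.05), beside 34.4% of the 14728 genes tested, and 0 were higher, beside 0.856%. Groups did not overlap, with axons lower, for 7 genes, beside 41.6% of all genes. In stretched cultures 2 of 37 were lower, beside 28.4% of 14466 genes, 0 were higher, beside 0.843%, and 6 did not overlap, with axons lower, beside 37.4%. At an unadjusted p under 0.05 the count was 5 in control cultures, beside 5517 of all 14728 genes. In stretched cultures it was 3, beside 4628 of 14466. DESeq2 called 6 and 3 genes lower, beside 37.5% and 31.6% of all genes, and 0 higher, beside 1.91% and 2.00%. With a filter of a mean of at least 1 CPM, 5 and 2 genes were lower, beside 27.5% and 21.6% of all genes. All genes include genes of lower soma level than the 37, and shares at a matched level were not taken.

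The 5 genes called lower in control axons were Polr1a, Polr1b, Utp18, Rrp12 and Noc2l. Polr1a had 0 counts in all 5 control axons and 29.8 ± 6.21 CPM in control somata (SD, n = 6), which is at least 179-fold lower against the floor of 3 counts per library. Rrp12 was likewise at 0 in all 5, against 37.2 ± 5.78 CPM in somata (SD, n = 6), at least 223-fold lower. Noc2l was at 0 in all 5, against 16.3 ± 4.62 CPM (SD, n = 6), at least 97.8-fold lower, with the soma values among those behind its choice. These 3 genes were under the floor in every control axon, and control somata were all above it. Utp18 had 1 count in control axon replicate 3 and none in the other 4, against 25.1 ± 7.20 CPM in somata (SD, n = 6). The ratio of soma to pooled axonal level was 3246, with an exact 95% Poisson interval of 583 to 128191 that covers counting error only. This ratio holds for control axons alone: in stretched axons Utp18 had counts in 4 of 6 libraries, up to 3588, and was not called. Polr1b had 13 counts in control axon replicate 5 and none in the others, against between 19.1 and 35.3 normalised CPM in somata. Its control axons were all under its control somata.

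In stretched cultures the genes called lower in axons were Utp20, a large scaffold protein of the small subunit processome, and Rrp12. Utp20 had 2 counts, both in stretched axon replicate 8, against 11.8 ± 2.24 CPM in stretched somata (SD, n = 6). The ratio was 793, with an exact 95% Poisson interval of 220 to 6552. Rrp12 had 10 counts, in replicate 5, against between 53.0 and 62.2 normalised CPM in somata. Rrp12 was the only one of the 37 genes that was called in both conditions. Utp20 was not called lower in control axons, where it was at 0 in 3 libraries and reached 94.1 normalised CPM in replicate 5, against 7.15 to 15.8 in somata. Polr1a and Polr1b each had counts in 1 stretched axon, at 55.3 and 191 normalised CPM, and were not called there. The lack of a call for Polr1a and Polr1b in stretched axons thus went with counts in single libraries. The 5 genes called in control cultures were called in every fit that left out 1 library. Further calls came and went with single libraries. Without control axon replicate 5, 10 genes were called lower in control axons, beside 52.4% of all genes. Without stretched axon replicate 8, 8 were called lower in stretched axons, beside 42.3% of all genes.

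Over the 37 genes the fold change of axon against soma was negative for 21 and positive for 16 in control cultures. In stretched cultures it was negative for 27 and positive for 10. The 7 and 6 genes without overlap included genes that were not called. The median log2 fold change of axon against soma was -0.25 in control cultures, beside -1.40 for all genes, and 0.01 beside -1.27 when libraries were scaled by total counts only. It was -0.56 in stretched cultures, beside -1.13, and -0.22 beside -0.73 with total counts only. With a filter of a mean of at least 1 CPM the medians were -0.28 beside -1.01 in control and -0.58 beside -0.85 in stretched cultures. All genes again include those of lower soma level than the 37. The snoRNP proteins were among those without a difference past the threshold in edgeR. With limma, Nop56, Nhp2 and Dkc1 were called lower in control axons, beside 66.0% of all genes. Nop56, Nop58 and Dkc1 were so in stretched axons, beside 69.2%. In edgeR Nop10 had a median of 144 normalised CPM in control axons and of 158 in control somata (log2 fold change -0.45, SE 0.50, adjusted p = 0.68, edgeR). Npm1 had medians of 266 and 235 (0.20, SE 0.82, adjusted p = 0.94, edgeR). In stretched cultures Npm1 had medians of 311 and 217 (0.30, SE 0.38, adjusted p = 0.80, edgeR). A difference that did not pass here, with SEs of up to 2.42 in control cultures, does not show equal levels.

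Of the other genes of the pathway, 19 of 114 were called lower in axons in control cultures, beside 34.4% of all genes, and 12 of 114 in stretched cultures, beside 28.4%, with 0 higher in either. The median log2 fold change was -0.85 in control cultures, beside -1.40 for all genes, and -0.72 in stretched cultures, beside -1.13. Urb2 was at 0 in all 11 axonal libraries.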

How the data were processed

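For every one of 23 libraries the authors deposited raw read counts by Ensembl gene, made with fastp 0.20.1, STAR 2.7.08a and HTSeq 0.13.5 on mm10, per the submitters' processing notes. The annotation release, the strand setting and any use of unique molecular identifiers are not given in the sources used here. Reads left uncounted (no feature, ambiguous or not unique) were between 14.2% and 24.4% and were left out. Symbols were found for 55141 of 55487 IDs.

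Each comparison was fitted on its own libraries with edgeR 4.0.16 in R 4.3.3 (filterByExpr, TMM scaling, robust quasi-likelihood test), and p-values were adjusted by Benjamini-Hochberg over all genes tested, with a threshold of 0.05. Amplified reads are not independent molecules, so floors and intervals cover counting error only. The edgeR fit was also run on simulated counts, whose outcome is not given here, and no result above rests on it. The 37 genes, the 119 other pathway genes, the markers and the alternatives were chosen with earlier results of these data known. Genes are named where they led the choice, were lowest or highest of a role in somata, passed a test with axonal libraries, or had counts in 6 or more or in the fewest axonal libraries. Rrs1, Bop1, Pes1, Wdr12, Wdr43 and Gnl3 are named outside these rules. Of the other pathway genes, the lowest pair and the highest pair in somata are named. Alternatives were other scalings and filters, DESeq2 1.42.0, limma 3.58.1 (voom), the replicate number as a block, each library left out, the Eif2s3y sets, and an offset for transcript length and GC content (mgcv 1.9.3). The interaction of pull and compartment was not fitted, since it contains the comparison that led to the choice.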

Additional observations from a re-analysis of the deposited data

Results flagged for a closer look

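In groups of 5 or 6 libraries, 1 library was set far from the others if its gap to the nearest exceeded Dixon's 95% limit. Chance flags about 1 in 20 groups of normally spread values, and here 18 of 93 groups were flagged. An axonal group with counts in 1 library and 0 in the others is always flagged. Genes called against somata for their few axonal counts were among those checked. The rate therefore does not apply to the axonal groups, and no excess over chance is read from the 18. All values are normalised CPM.

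In somata 3 of these were control replicate 4: Polr1b was at 32.6 there, against 17.9 to 23.2 in the other 5 controls, Utp15 at 59.4 against 34.7 to 40.0, and Noc3l at 16.3 against 8.80 to 11.4. Among stretched somata, Rrp9 was low in replicate 4 (30.9, others 32.3 to 32.9), Wdr74 was high in replicate 4 (76.6, others 46.8 to 55.8), and Nop10 was high in replicate 5 (129, others 98.8 to 109).

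In axonal libraries most of the distant values were single libraries with counts beside others at 0. This was so for Noc2l (6.51) and Polr1a (71.0) in stretched replicate 8, for Polr1b in control replicate 5 (0.431) and in stretched replicate 6 (262), for Utp18 in control replicate 3 (0.0498, a single count), for Rrp12 in stretched replicate 5 (0.424), for Utp20 in stretched replicate 8 (0.131) and for Nop2 in control replicate 5 (53.0). Nop2 was also high in stretched replicate 1 (746, lowest of the others 1.66), Nolc1 in control replicate 7 (190, others 0 to 46.7), Utp20 in control replicate 5 (127, others 0 to 36.6) and Rrp1 in control replicate 5 (1420, others 312 to 607).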

How the results depend on the processing

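In stretched somata, 17 genes lower and 2 higher became 10 lower with no filter (4.46% of all genes) and 4 higher with limma (17.2%). They became 6 higher in the Eif2s3y-high set alone (16.5%), and 0 lower and 0 higher in the low set alone (0%). There were 4 higher without both soma libraries numbered 4 (17.7%). With the offset for length and GC content the calls were 7 lower and 0 higher (8.98% and 6.27% of all genes) with a median of -0.15. Leaving out each library gave 9 to 19 lower and 0 to 5 higher, beside 9.08% to 20.1% and 6.66% to 18.2% of all genes. In control axons against somata, leaving out each library gave 5 to 10 lower and 0 to 1 higher. Of all genes 31.5% to 52.4% were lower and 0.611% to 1.20% higher in those fits. In stretched cultures it gave 2 to 8 lower and 0 to 1 higher, beside 28.0% to 42.3% and 0.635% to 1.23% of all genes. limma called 23 lower in each of the axon against soma comparisons, with medians of -5.32 in control and -6.37 in stretched cultures. It called 66.0% and 69.2% of all genes lower, with medians of -6.64 and -6.40.

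Same-numbered libraries did not all deviate together: in somata the correlations of 5 pairs were between 0.07 and 0.28, in axons those of 3 pairs between 0.03 and 0.05, with 4 of 5 and 0 of 3 over 0.1. Pairs in somata averaged 0.21, against -0.03 for other numbers. In 2 of 5 soma, 2 of 3 axon, 3 of 4 control and 3 of 6 stretched axon and soma pairs the libraries correlated best with their own number. The labels do not say that a number marks a shared culture, so pairing is a hint from the data. With the replicate number as a block, 10 genes were lower in stretched somata (10.4% of all genes), the medians of axon against soma were -6.85 in control and -6.77 in stretched cultures, and 11 genes were lower in stretched axons against somata. All genes had medians of -8.10 and -8.46 there, with 53.1% lower in stretched cultures. With the block and the offset together, 6 were lower and 0 higher in somata (6.65% and 6.15% of all genes) with a median of -0.17. Rrp9 in somata turned from -0.30 to 0.072 with the offset and to 0.093 with block and offset. No other gene called in somata changed sign under any of the 25 alternatives. The causes were not tested. In axons 0 of these genes was called in any alternative.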
